A study of Schmidtea mediterranea with 8 samples.

Results

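*smo*, *sufu*, *gli-1*, *gli-2* and *gli-3* encode the Hedgehog (Hh) signal transducers of the planarian *Schmidtea mediterranea*, and their transcripts were followed in dissected brain tissue and in whole head fragments. The genes were chosen by name: the 5 contigs that the study pairs with these symbols, of 38634 contigs of the transcriptome assembly in each table, with no measured value used in the choice. They are contigs dd_Smed_v4_9474_0_1 (*smo*), dd_Smed_v4_10354_0_1 (*sufu*), dd_Smed_v4_7470_0_1 (*gli-1*), dd_Smed_v4_46372_0_1 (*gli-2*) and dd_Smed_v4_17566_0_1 (*gli-3*), and each was the only contig of its assembly component (1 contig each).

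In the Hh pathway the secreted ligand Hh binds and inactivates the receptor Patched, which otherwise holds the multipass membrane protein Smoothened in check. Smoothened carries the signal into the cell, where Suppressor of fused binds Gli zinc finger proteins and restrains them, and the Gli proteins act on target genes in the nucleus. In planarians the pathway is known for its part in anterior-posterior patterning of regenerating tissue, *gli-1* and *gli-2* are described as activators and *gli-3* as a repressor, and *ptc* is itself a transcriptional target.

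The 8 libraries formed 4 groups of 2. Control heads were amputated head fragments of the asexual strain CIW4 after 6 feedings of dsRNA against *unc-22*, a nematode gene that planarians lack. Cephalic ganglia (CNS) were dissected from large sexual S2F1L3F2 animals after 12 feedings of *unc-22* dsRNA (control CNS), hedgehog dsRNA (*hh(RNAi)*) or patched dsRNA (*ptc(RNAi)*), and feedings were 4 days apart in all groups. The paper describes a brief acid treatment of the animals before ganglia were dissected, and describes none for the head fragments. A head library was made from 1.0 µg and a CNS library from 0.2 µg of RNA. The tissue therefore cannot be told apart from the strain, the number of feedings, the acid treatment and the RNA input. The sources do not say that the 2 libraries of a group came from separate animals, and p-values therefore measure the spread between libraries, which may be technical.

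The libraries held between 11479783 and 18914547 reads on contigs. The tables hold group means, from which the whole reads of each library were solved, and the 2 libraries of a group are called a and b, letters with no link between groups. Levels are given as normalized reads, scaled over all 8 libraries together, with no correction for contig length, so levels of different genes were not ranked. Over 12937 contigs with an average of at least 100 such reads, the SD of the log2 difference between libraries a and b was 0.17 in control heads, 0.42 in control CNS, 0.59 in *hh(RNAi)* and 0.46 in *ptc(RNAi)*. The *hh(RNAi)* pair thus differed most. All 5 neuronal markers, among them *syn*, *chat*, *pc2* and *netrin 1*, were called higher in control CNS than in heads, and of 16 markers of other cell types, 13 were tested, 9 were called lower and 1 higher. None of these markers was at 0 in both libraries of any group, the dissected ganglia included. The photoreceptor marker *ovo* was at the floor, with 1.04 and 0 normalized reads in control CNS and 0 and 1.13 in *hh(RNAi)*.

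*smo*, the signal-transducing membrane protein of the pathway, was higher in cephalic ganglia than in head fragments. In control heads libraries a and b stood at 405 and 394 normalized reads, and in control CNS at 695 and 629. The *hh(RNAi)* libraries held 755 and 576, and the *ptc(RNAi)* libraries 525 and 545. All 6 CNS libraries lay above both head libraries, with a CNS range of 525 to 755 around a median of 603. In order of group means, heads (399) were followed by *ptc(RNAi)* (535), control CNS (662) and *hh(RNAi)* (666). The last pair overlapped, whereas both *ptc(RNAi)* libraries lay below both control CNS and both *hh(RNAi)* libraries.

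Between control CNS and heads, *smo* differed by 0.86 on the log2(normalized reads + 1) scale (SE 0.085, 95% interval 0.64 to 1.08), a fold of 1.82 with an adjusted p of 0.00051 (limma, Benjamini-Hochberg adjustment over 13494 tested contigs). This lay under the call rule, in which the adjusted p has to be under 0.05 and the fold above 2. The median tested contig was itself 0.32 higher in CNS on the log2 scale, and relative to that median *smo* was 0.54 higher, with an adjusted p of 0.0028 from limma. The direction held in each of the 14 alternatives run, with log2 differences between 0.54 and 0.94. A lower minimum or no fold minimum leaves the difference as it is, and leaving out a library cannot reverse groups that do not overlap.

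*sufu*, whose product restrains Gli proteins, differed little between the tissues. The levels were 164 and 178 normalized reads in control heads, 200 and 213 in control CNS, 190 and 220 in *hh(RNAi)*, and 269 and 224 in *ptc(RNAi)*. Heads were the lowest group and *ptc(RNAi)* the highest, with control CNS and *hh(RNAi)* overlapping between them. The difference of control CNS from heads was 0.41 on the log2 scale (SE 0.11, 95% interval 0.13 to 0.69), a fold of 1.33 with an adjusted p of 0.017 by limma. It came to 0.09 relative to the median contig, where the adjusted p was 0.470, and it was 0.10 (adjusted p 0.420) by edgeR and 0.09 (adjusted p 0.725) by DESeq2. The log2 difference was 0.35 without head library a and 0.47 without head library b, with 1 head library left in each fit. It was 0.45 without control CNS library a and 0.37 without control CNS library b. By limma the adjusted p was also above 0.05 in the fit over 8 libraries (0.132) and with component sums (0.0525). It was under 0.05 with total-read scaling (0.0349), with a pseudocount of 10 (0.0171) and with no expression minimum (0.0253). The difference in *sufu* thus lay close to that of the median contig, and its adjusted p changed with the scaling and with other settings.

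*gli-1*, the Gli activator known to be needed for Hh responses in planarians, was the only member called between the tissues. Control heads held 989 and 791 reads, or 707 and 673 after normalization. Control CNS held 141 and 134 reads, or 147 and 146 after normalization. In the remaining ganglia the normalized reads were 151 and 136 in *hh(RNAi)* and 154 and 175 in *ptc(RNAi)*. The 6 CNS libraries thus stayed between 136 and 175, a highest-to-lowest ratio of 1.28, and none came near the head libraries.

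*gli-1* fell by 2.09 on the log2 scale in control CNS against heads (SE 0.081, 95% interval -2.30 to -1.88), with an adjusted p of 5.0e-05 by limma. In linear terms the head level was 4.26-fold that of control CNS (95% interval 3.68 to 4.94). It fell by 2.41 relative to the median contig. The call held in each of the 14 alternatives, whose log2 differences ran from -2.42 to -2.03. Not all of these could have undone it. Dropping the fold minimum can only add calls, and a lower expression minimum leaves the difference as it is. Since head and ganglia are mixtures of cells, fewer *gli-1*-expressing cells and less *gli-1* RNA per cell cannot be told apart in these libraries.

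**Figure D1:**
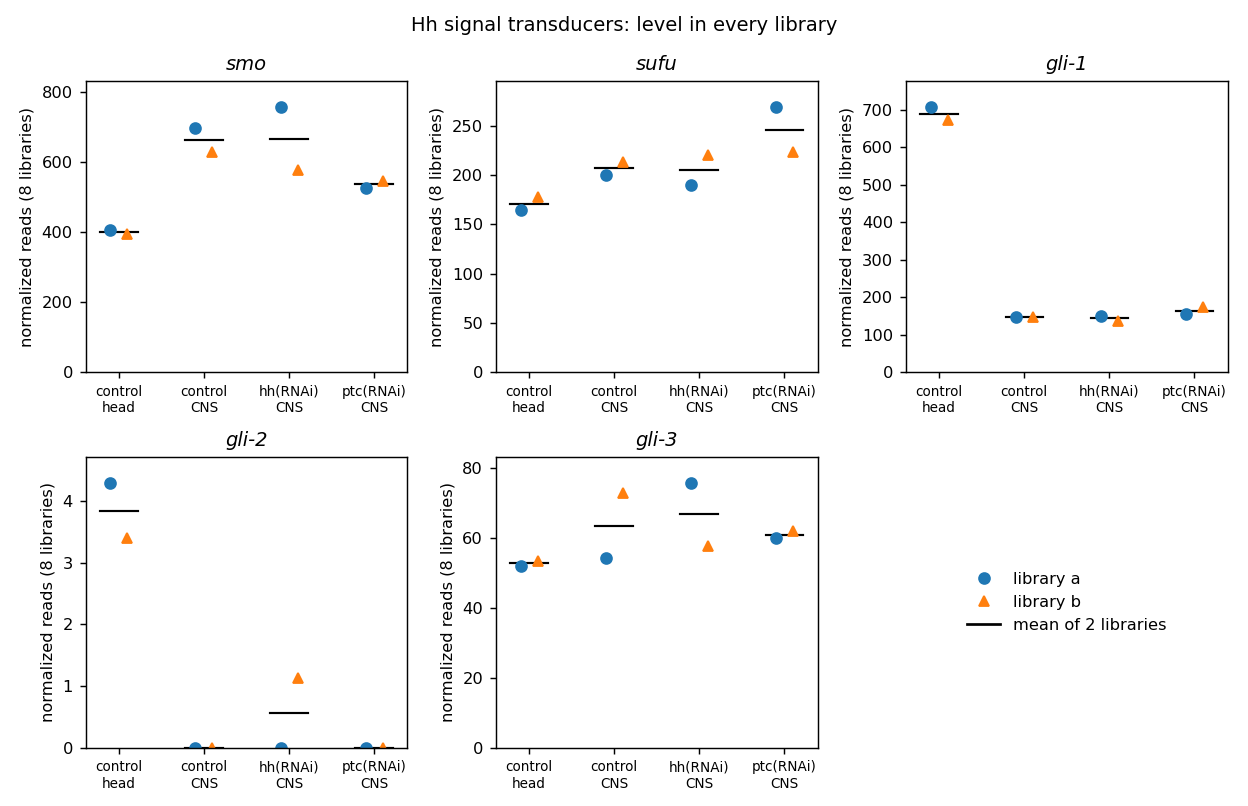
Normalized reads (vertical axes, scaled over all 8 libraries, each starting at 0) of the 5 members in the 2 libraries of each of the 4 groups; circles are library a, triangles library b and bars the mean. *smo* lies at 394 to 405 in heads and 525 to 755 in ganglia, *gli-1* at 673 to 707 in heads and 136 to 175 in ganglia, and *gli-2* has reads in heads and in 1 ganglia library.

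Most markers of other tissues were also lower in ganglia than in heads. Photoreceptor markers, not tested, went both ways (*tyrosinase* -2.36, *ovo* -1.77 and *sp6-9* 1.33 on the log2 scale). *sine oculis 1/2-2*, a marker of protonephridia (excretory organs), differed by 0.03, while *cubulin* of that class fell by 3.52. Gut markers were split too. Their summed level over 3 genes was 5119 and 5472 normalized reads in heads and 3134.6 and 2876 in control CNS, a drop that lay in *mat* alone (3827 and 4133 against 1024 and 719). The others were higher in control CNS, *mboat2* by 0.53 on the log2 scale (adjusted p 0.0012 by limma, under 2-fold) and *mboat7* by 1.24 (called). The marginal gland marker *mag-1* was at 11196 and 11517 against 451 and 474. *collagen*, a muscle marker, was at 15932 and 15478 in heads and 508 and 849 in control CNS. Among single genes, the gut marker *mat* fell by 2.08 and the epidermal progeny marker *agat-1* by 2.13 on the log2 scale, values next to that of *gli-1*. The part of such tissues in the *gli-1* difference was not tested.

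**Figure D2:**
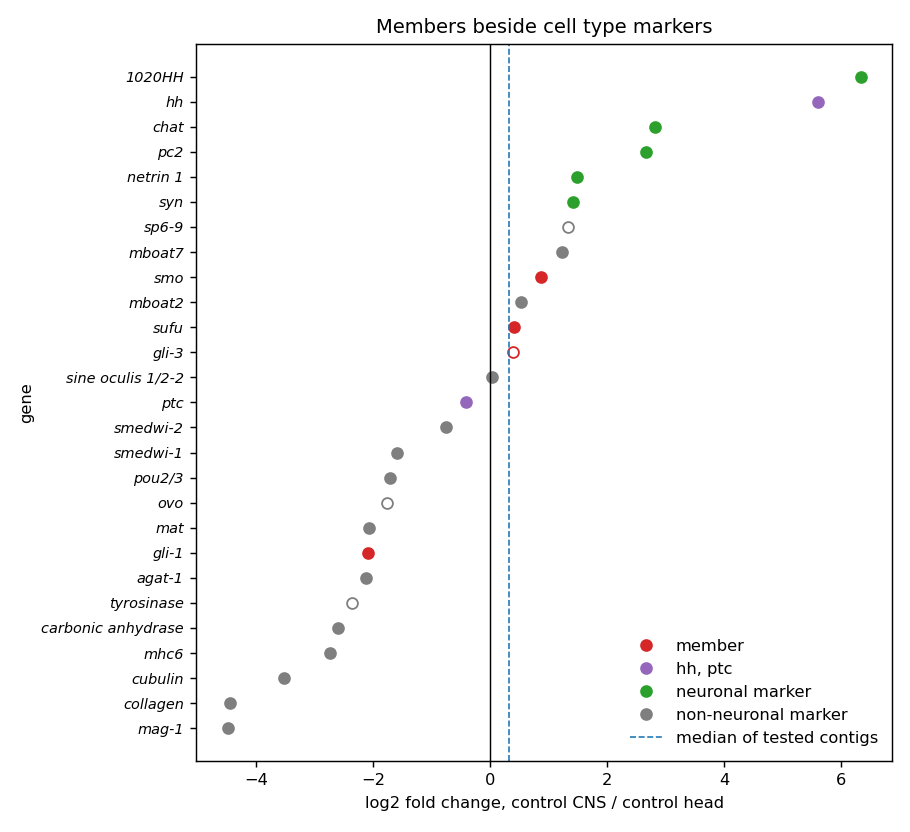
Log2 fold change of control CNS over control heads (horizontal axis) for 4 members (red), *hh* and *ptc* (purple), 5 neuronal markers (green) and 16 markers of other cell types (gray), ordered by value; open circles were under the expression minimum and not tested, and the dashed line is the median of tested contigs at 0.32. *gli-1* at -2.09 lies between *mat* and *agat-1*, while *smo* at 0.86 lies below every neuronal marker.

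*gli-3*, the Gli repressor, was measured at low depth. Its reads numbered 73 and 63 in control heads, 52 and 67 in control CNS, 81 and 51 in *hh(RNAi)*, and 59 and 61 in *ptc(RNAi)*. In normalized reads this was 52.2 and 53.6, 54.3 and 72.9, 75.8 and 57.9, and 60.1 and 62.0 in the same order. The 3 CNS groups overlapped one another, and the lowest CNS library stood less than 1 read above the higher head library. *gli-3* fell under the minimum of 100 normalized reads and was not tested, and its log2 difference between control CNS and heads was 0.38. With the minimum lowered to 10 normalized reads, the adjusted p of that difference was 0.155 (limma). Relative to the median contig the difference was 0.06.

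*gli-2*, described as a further activator, was close to undetected. It had 6 and 4 reads in the control head libraries, 0 and 0 in control CNS, 0 and 1 in *hh(RNAi)*, and 0 and 0 in *ptc(RNAi)*. Pooled over libraries this was 10 reads of 34794835 in heads, or 2.87 per 10000000 reads (exact Poisson 95% interval 1.38 to 5.29), against 1 of 73830170 in all ganglia, or 0.135 per 10000000 (0.00343 to 0.755). These intervals cover counting error only. The 0 reads of 24480478 in control CNS were replaced by a floor of 3 reads for the group, and the head mean was 2.19 times that floor. This ratio leaves out the counting error of the heads. The Poisson interval of control CNS, 0 to 1.51 per 10000000 reads, overlapped that of heads. Such overlap is no test of a difference, and no smallest fold is given. Without control CNS library a or b the ratio to the floor was 1.07 or 1.12, since the same floor then rests on 1 library.

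In the comparison of control CNS with heads, 3 of the 5 members passed the expression minimum, and 1 of these, *gli-1*, was called, as a decrease. Across the transcriptome 55% of tested contigs were called (4418 up and 3001 down, and relative to the median 3417 up and 3711 down). With 3 members tested, the share called cannot be told apart from that background. All 3 tested members had an adjusted p under 0.05, against 84.8% of tested contigs, and all 3 had groups that did not overlap, against 93.5%. A difference between these tissues was therefore the rule for contigs at this depth. The median log2 difference of the 3 members was 0.41, beside 0.32 over all tested contigs. Of the 7 genes of the pathway, which add the ligand *hh* and the receptor *ptc*, 5 were tested, 1 (*hh*, 5.61 on the log2 scale, adjusted p 0.00015 by limma) was called higher and 1 lower. *ptc* was lower by a log2 difference of -0.42 (adjusted p 0.0046 by limma), under 2-fold.

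The RNAi comparisons asked whether the transducers themselves respond to lowered *hh* or *ptc*. The targets were followed first. *hh* was at 239 normalized reads on average in control CNS and at 39.3 and 85.1 in *hh(RNAi)*, and *ptc* was at 306 on average in control CNS and at 198 and 201 in *ptc(RNAi)*. Both RNAi groups lay below both control libraries for their target. By limma the log2 differences were -2.01 for *hh* (adjusted p 0.9999, and 0.0037 by DESeq2) and -0.58 for *ptc* (adjusted p 0.308), so neither target was called by the main test, in which only 1 of 12153 and 41 of 12121 contigs were.

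None of the tested members changed detectably in *hh(RNAi)*: 0 of 3 tested members were called by limma, and 0 had an unadjusted p under 0.05, at a background of 0.00823% of contigs called and 276 of 12153 at an unadjusted p under 0.05. *smo* differed from control CNS by 0.02 on the log2 scale (fold 1.01, 95% interval 0.728 to 1.41). For *sufu* the fold was 1.003 (95% interval 0.751 to 1.34), and for *gli-1* it was 0.991 (95% interval 0.700 to 1.403). In all 3 the *hh(RNAi)* libraries overlapped the control libraries (0 of 3 apart, background 26.5%), and the adjusted p was 0.9999 by limma. The signs of these values changed with the processing, and no direction is given for any of them. *gli-3*, not tested, differed by 0.09. *ptc*, in the same libraries, was at 159 and 117 normalized reads against 303 and 310 in control CNS, a log2 difference of -1.14 (unadjusted p 0.0025, adjusted p 0.9999, limma).

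Within the *hh(RNAi)* pair, *smo* was higher in library a than in library b by 0.39 on the log2 scale, which is ordinary for that pair, whose median absolute difference over contigs was 0.28 and SD 0.59. The corresponding difference was 0.14 in control CNS and 0.04 in heads. *gli-3* split by 0.38 and *ptc* by 0.44 the same way, while *sufu* was higher in library b, with a difference of -0.21. With *hh(RNAi)* library a left out, the *smo* difference from control CNS was -0.21 (adjusted p 0.990, limma), and over the 4 such omissions it ran from -0.21 to 0.24.

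In *ptc(RNAi)*, again, 0 of 3 tested members were called by limma and 0 had an unadjusted p under 0.05, at a background of 0.338% of contigs called and 774 of 12121 at an unadjusted p under 0.05. *smo* was at 0.830-fold the control CNS level (log2 difference -0.27, SE 0.12, 95% interval of the fold 0.678 to 1.02, adjusted p 0.800, limma). *sufu* was at 1.22-fold (log2 difference 0.28, SE 0.15, interval of the fold 0.943 to 1.57, adjusted p 0.845). *gli-1* was at 1.147-fold (log2 difference 0.20, SE 0.18, interval of the fold 0.851 to 1.55, adjusted p 0.927). The groups of all 3 did not overlap, *smo* lying lower and *sufu* and *gli-1* higher in both *ptc(RNAi)* libraries, and 36.4% of tested contigs were likewise apart. These differences kept their direction in the 14 alternatives run for each, but not all of these could have changed it. A lower minimum or no fold minimum leaves the difference as it is, and leaving out a library cannot reverse groups that do not overlap. With both libraries of each group kept, the lowest adjusted p was 0.658 (limma, *smo* with no expression minimum). *gli-3*, not tested, differed by -0.01.

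Of the 16 markers of other cells, 11 were tested in *ptc(RNAi)* against control CNS, 1 was called higher and 0 lower. The called marker was *mag-1*, at 1274 and 1158 normalized reads against 451 and 474 in control CNS (1.43 on the log2 scale). The neoblast markers *smedwi-1* and *smedwi-2* summed to 13336 and 11684 against 6726 and 9007, with neither called. The log2 differences of *agat-1* (-0.78), *mhc6* (0.02) and *collagen* (0.19) were not called. Among gut markers *mat* differed by -0.63, *mboat2* by -0.08 and *mboat7* by -0.0014, with none called. Among protonephridia markers *cubulin* (0.0078) and *sine oculis 1/2-2* (0.16) were not called. The others of that class, *pou2/3* (0.45) and *carbonic anhydrase* (0.015), were not tested. The summed neuronal markers were 60020 and 65313 against 68613 and 67734. The part of these cells in the *smo*, *sufu* and *gli-1* values was not tested.

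Set directly against each other, *hh(RNAi)* and *ptc(RNAi)* ganglia likewise gave 0 of 3 members called and 0 at an unadjusted p under 0.05 (limma, 12127 contigs tested, 0.107% called, 797 at an unadjusted p under 0.05). *smo* was 1.21-fold in *hh(RNAi)* relative to *ptc(RNAi)* (95% interval 0.867 to 1.68, adjusted p 0.955). The fold was 0.818 for *sufu* (95% interval 0.601 to 1.11, adjusted p 0.927) and 0.857 for *gli-1* (95% interval 0.604 to 1.21, adjusted p 0.986). All 3 pairs of groups were apart, beside 34.2% of tested contigs. Both RNAi groups were compared with the same 2 control libraries, so the values of the separate comparisons are not independent. An exact permutation test of 2 against 2 libraries cannot go below a two-sided p of 0.333. Over the 3 RNAi comparisons and all alternatives, 141 limma, edgeR or DESeq2 results held an adjusted p for *smo*, *sufu*, *gli-1* or *gli-3*. Of these 0 were under 0.05. They are not all separate fits, since the setting with no fold minimum repeats the main fit. With both libraries of each group kept, the lowest was 0.536 (limma fit over 8 libraries, *smo* in the direct comparison).

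**Figure D3:**
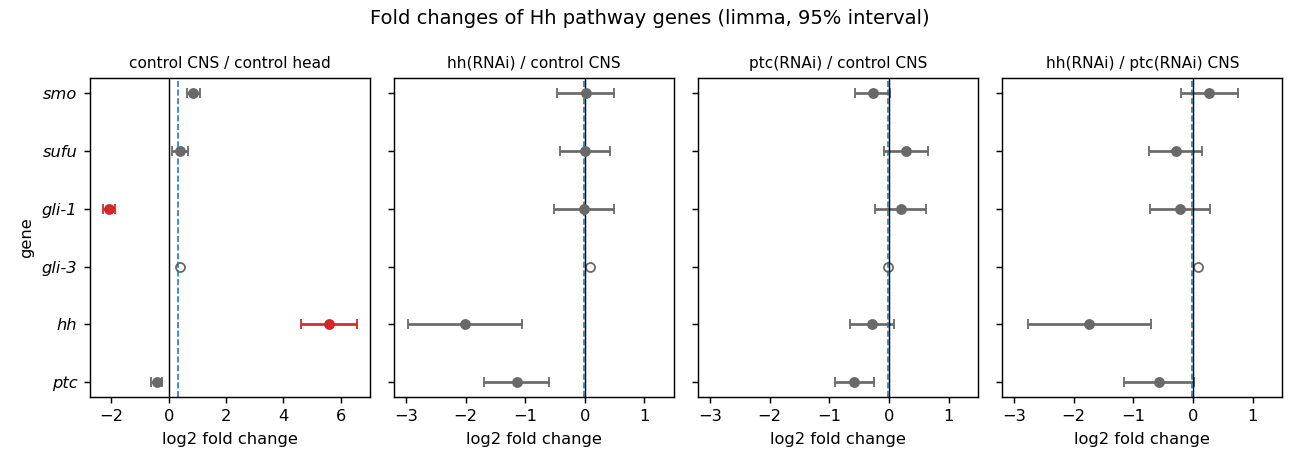
Log2 fold change (horizontal axes, which differ between the first panel and the other 3) with 95% interval from limma for 4 members and for *hh* and *ptc* in the 4 comparisons; red marks called genes, open circles genes not tested, and the dashed line the median of tested contigs. The intervals of *smo*, *sufu* and *gli-1* include 0 in all 3 RNAi panels, and *gli-1* and *hh* are called in the tissue panel.

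Ratios of 2 genes within a library need no scaling, and contig length cancels when such a ratio is compared between libraries. Their choice followed a look at the values, and they carry no test. *smo* had 0.573 and 0.585 reads per *gli-1* read in control heads and 4.72 and 4.31 in control CNS, 7.80 times the head value on average. The ratio was 5.01 and 4.23 in *hh(RNAi)* and 3.42 and 3.12 in *ptc(RNAi)*, the lowest values among ganglia. *gli-3* per *gli-1* was 0.0738 and 0.0796 in heads and 0.369 and 0.500 in control CNS, 5.66 times its head value on average. Between these tissues the larger part of both ratios lay in *gli-1*, with a log2 difference of -2.09. The log2 difference was 0.86 for *smo* and 0.38 for *gli-3*, which was not tested. In *hh(RNAi)* the ratio of *gli-3* to *gli-1* was 0.503 and 0.425 and in *ptc(RNAi)* 0.391 and 0.355, values that overlapped those of control CNS.

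*sufu* per *smo* was 0.406 and 0.451 in heads, 0.288 and 0.339 in control CNS, 0.252 and 0.382 in *hh(RNAi)*, and 0.512 and 0.410 in *ptc(RNAi)*. Both *ptc(RNAi)* libraries lay above all 4 other ganglia libraries and in the range of the heads or higher. *smo* per *ptc* was 2.30 and 2.03 in control CNS, 4.75 and 4.93 in *hh(RNAi)*, and 2.66 and 2.71 in *ptc(RNAi)*. Both RNAi groups lay above both control CNS libraries in this ratio, while *smo* alone overlapped control CNS in *hh(RNAi)*. The denominator *ptc* was at 159 and 117 normalized reads in *hh(RNAi)*, and at 198 and 201 in *ptc(RNAi)*, where it is the target. It was at 303 and 310 in control CNS. The ratio therefore carries the lower *ptc* and shows no rise of *smo*, which was itself lower in *ptc(RNAi)* than in control CNS.

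**Figure D4:**
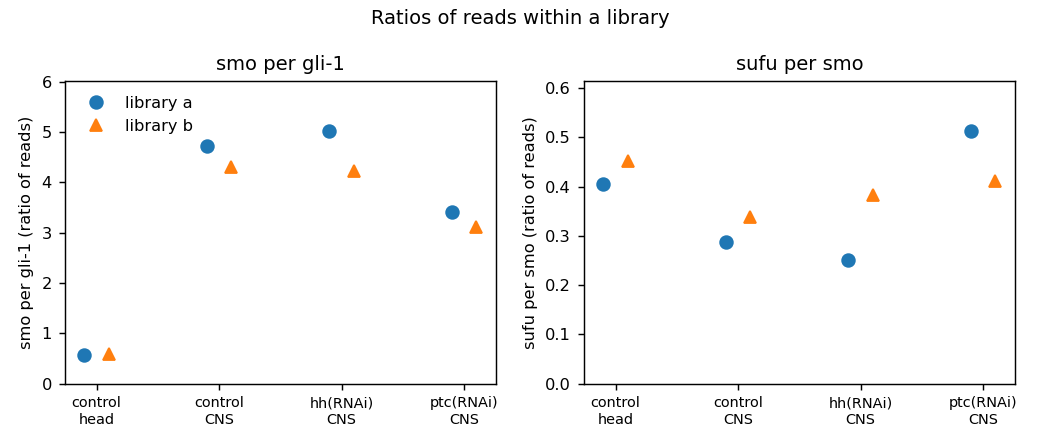
Reads of *smo* per read of *gli-1* (left) and of *sufu* per read of *smo* (right) in the 2 libraries of each group, vertical axes from 0; circles are library a and triangles library b. The *smo* to *gli-1* ratio is 0.573 and 0.585 in heads and 3.12 to 5.01 in ganglia, and the *sufu* to *smo* ratio is 0.410 and 0.512 in *ptc(RNAi)*.

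The profiles of *smo*, *sufu* and *gli-1* were set beside those of 84 contigs named in the study's neuronal panel or marker table, by Pearson's r of log2 normalized reads, as a description. Over all 8 libraries, in which heads and ganglia form separate sets, *smo* was most like *chat* (choline acetyltransferase, r = 0.92), *Galpha* (a G protein subunit, 0.92) and *K channel* (0.92). *sufu* was most like the homeobox genes *six3* (0.88) and *nkx2* (0.81) and like *hh* (0.78). *gli-1* was most like *cubulin* (a marker of protonephridia, the planarian excretory organs, 0.99), *collagen* (0.99) and *mhc6* (a myosin used as a pharynx marker, 0.99). Most of the 84 contigs come from the neuronal panel, and over 8 libraries r also carries the difference between heads and ganglia, so nothing is read from the kind of neighbour.

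Within the 6 ganglia libraries *K channel* again stood beside *smo*, and the other neighbours of the 3 genes were not those found over 8 libraries. *smo* was most like *K channel* (0.96), *Tcf/Lef-1* (the nuclear partner of beta-catenin, 0.95) and *otxB* (0.94). *sufu* was most like *pou2/3* (a marker of protonephridia, 0.98), *cas* (0.91) and *mag-1* (0.85). *gli-1* was most like *beta-catenin* (0.81), *smedwi-2* (0.75) and *otxA* (0.71). These values rest on 6 points that share libraries and depth.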

How the data were processed

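Illumina reads of 8 planarian libraries were, per the labels and methods, mapped by the authors to the Dresden transcriptome with Bowtie2 (best single alignment, 5′ bases trimmed), counted with SAMtools and compared with DESeq2, versions not given in the sources used here. The TruSeq v2 kit does not mark strand. The signal columns that the authors deposited are group means of normalized reads, and their fold change and p columns were not used. A mean is built from 2 libraries, each adding a fixed step per read, and from these steps whole reads were solved for 100% of means above 0, and the control CNS reads were identical in 38634 contigs of both RNAi tables. Of the head-versus-CNS means, 124 of heads and 50 of CNS, none of a member, allowed more than 1 solution. There the first mean was taken as head, since the other equalled the control CNS of the *hh(RNAi)* table.

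Because the files hold means, limma 3.58.1 (R 4.3.3; trend, empirical Bayes) served as main test, run within each comparison on log2(normalized reads + 1) per library, for contigs averaging at least 100 normalized reads, with size factors of those libraries and Benjamini-Hochberg adjustment. Called contigs had an adjusted p under 0.05 and over 2-fold. Fits were tested on simulated data. The simulation used the same fixed spread for all contigs and groups, so it does not show how the fits perform at the spread of these pairs. Alternatives were minima of 10, 1000 and none, a pseudocount of 10, no fold minimum, total-read and median scaling, 1 fit over 8 libraries, edgeR 4.0.16, DESeq2 1.42.0, component sums and each library left out. Genes named were the members, *hh*, *ptc*, the 3 most alike named contigs per member with at least 100 reads, and markers from the study's table, whose members and lists were chosen with earlier results of these data known. Python 3.11.15, pandas 2.3.3 and matplotlib 3.10.9 were used.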

Additional observations from a re-analysis of the deposited data

How the results depend on the processing

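The call of *gli-1* between control CNS and heads held under every alternative run, though dropping the fold minimum could not have undone it. The absence of calls for *smo*, *sufu* and *gli-1* in the RNAi comparisons also held under every alternative. With a minimum of 1000 normalized reads no member was left to test. Dropping the fold minimum made calls of *smo* (0.86 on the log2 scale), *sufu* (0.41) and *ptc* (-0.42) between the tissues. In *hh(RNAi)* against control CNS the sign changed for *smo* (-0.0036 by the fit over 8 libraries), for *sufu* (-0.0161 by that fit) and for *gli-1* (0.0545 scaled by total reads, 0.0059 relative to the median, 0.0231 by edgeR, 0.0227 by DESeq2, 0.0044 with component sums). With each library left out, *smo* ran from -0.21 to 0.24, *sufu* from -0.0731 to 0.0804 and *gli-1* from -0.114 to 0.0885 in that comparison; the cause was not tested.

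Counts of called contigs moved more. Between the tissues 7419 contigs were called, against 13361 with a minimum of 10, 1307 with 1000, 17925 with none, 11449 with no fold minimum and 7131 by edgeR. In *hh(RNAi)* the main count of 1 became 2 with a minimum of 10 or none, 0 with total-read scaling, 10 in the fit over 8 libraries, 2 by edgeR and 37 by DESeq2. In *ptc(RNAi)* 41 became 6 with a minimum of 1000, 0 with none, 19 in the fit over 8 libraries, 36 by edgeR and 126 by DESeq2. Directly compared, 13 became 8 with a minimum of 1000, 0 with none, 118 in the fit over 8 libraries, 8 by edgeR and 156 by DESeq2. Leaving out a library gave 2 to 13 calls in *hh(RNAi)* (13 without *hh(RNAi)* library a), 9 to 112 in *ptc(RNAi)* (112 without control CNS library b) and 27 to 257 in the direct comparison (257 and 220 without *hh(RNAi)* library a or b), where the lone library is assumed to vary like the other group. *hh* was called by DESeq2 in *hh(RNAi)* (-1.92) and against *ptc(RNAi)* (-1.65), and in the latter also without *hh(RNAi)* library a (-1.21) or b (-2.27). No paired analysis was possible because the deposited columns are group means and the recovered libraries carry no replicate number. Depth limits *gli-2*, with 11 reads in all, and *gli-3*, under the minimum.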
